A study of Mus musculus with 14 samples.

Results

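The 5 day 3 libraries of mouse kidney RNA were compared as 2 sets, the first group of 3 (titled 3d_1, 3d_2 and 3d_3) and the second group of 2 (3d_4 and 3d_5). They are 5 of 14 libraries in all, and they were divided by the format of the number in the library's file name, 3 digits in the first group and 1 digit in the second. The sources used here do not say what this format stands for, so it was treated as an unexplained grouping. All 14 libraries came from kidneys of male C57/B6 mice aged 8 weeks, 4 at day 0, 5 at day 1 and 5 at day 3 after renal ischemia/reperfusion injury (IRI), in which the blood supply of the kidney is interrupted and then restored. No allele or agent other than the injury is named for any group, and whether day 0 mice had a sham operation is not stated. Nothing states that libraries came from separate mice, so p-values measure the spread between these libraries, which may be technical. Bulk RNA sequencing reads the RNA of all cells together, so fewer cells of a type and less RNA per cell cannot be told apart.

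After ischemia the proximal tubule, which reclaims most of the filtered solute and depends on oxidative metabolism, loses its transporters and takes on injury markers. Surviving tubular cells then re-enter the cell cycle, copy their DNA, divide and regain transporter expression. Neutrophils enter the injured kidney early, monocytes and macrophages follow, and pericytes and fibroblasts take on contractile and matrix genes. The comparison asks which of these recovery, proliferation and immune programs differed between libraries of the same day.

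The day 3 libraries held 12485579 to 19168972 reads on genes, with 14729375 in 3d_4 and 12485579 in 3d_5 against at least 16511410 in the first group. Kidney identity was checked with the proximal tubule list, whose 25 members were all tested and whose summed level was 12697 to 31358 CPM (the count scaled to the library total) in each of the 5 libraries. The libraries of a group were not uniform. In log2 CPM over all tested genes, 3d_1 lay nearer to 3d_4 (distance 71.6) than to 3d_2 (99.6), within-group distances were 73.2 to 99.6 and 82.7, and distances between the groups were 71.6 to 145. Library 3d_2 lay nearest to the day 0 mean (106) and 3d_5 farthest from it (175). Calls between the groups are therefore also given with single libraries left out. Without 3d_5 the lone 3d_4 was assumed to vary like the libraries of the other groups. Of 58 genes that were named by the stated rule and called, 11 kept their call without 3d_5 (Mki67, Hmmr, Kif20a, Slc12a1, Acsm1, Acta2, Tagln, Rsad2, Fgb, Vgf and Krt14) and 47 were not called, so any of these 58 given below without such a value lost its call when 3d_5 was left out. Of the smaller lists below, tubular metabolism and distal nephron then had 1 call each, and the G1, complement and antigen presentation lists had 0 (6, 3 and 5 members at an unadjusted p under 0.05 by edgeR).

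Between the groups 2645 of 14300 genes tested differed (18.5%, edgeR's quasi-likelihood test, Benjamini-Hochberg adjusted p under 0.05), 1470 higher in the first group (10.3%) and 1175 lower (8.22%). Of these, 1467 differed by at least 1 on the log2 scale, 975 higher and 492 lower. Without regard to the test, values did not overlap between the groups for 3069 genes that were higher in the first group (21.5%) and 2853 that were lower (20%). Of the 1470 genes higher in the first group, 1116 were below day 0 in the second group, 306 were above day 0 in the first and 360 were below day 0 in the first. Among the 1175 lower genes, 1057 were above day 0 in the second group. The count rested on single libraries: it was 91 without 3d_5 (49 higher and 42 lower), 4771 without 3d_1, 1176 without 3d_2 and 1144 without 3d_3. It was 76 in a fit of the 5 day 3 libraries alone. That fit has fewer degrees of freedom. Its spread is also not shared with the day 0 libraries, which lay closer together (distances 37.5 to 66.7).

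**Figure D1:**
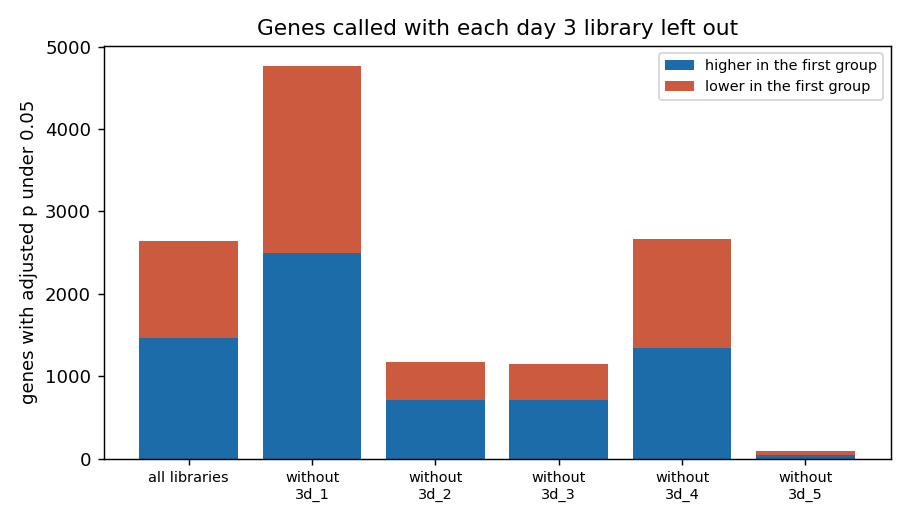
Number of genes that differed between the day 3 groups (adjusted p under 0.05) with all libraries and with each day 3 library left out, split by direction. The bar without 3d_5 stands at 91 genes and that without 3d_1 at 4771, against 2645 with all libraries.

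Against the same 4 day 0 libraries, 4635 genes differed in the first group (32.4%, 2738 higher and 1897 lower) and 7680 in the second (53.7%, 4084 higher and 3596 lower). These comparisons share their controls. With library totals in place of TMM scaling, the first group's split was 3820 higher and 1148 lower. The counts were 3472 to 5283 with 1 library of the first group left out, and 6796 without 3d_4 and 5196 without 3d_5 for the second.

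Mitosis genes were higher in the first group without exception. All 30 listed genes were tested, and all 30 were higher in the first group, beside 10.3% of all genes, with a median log2 difference of 3.14 and a range from 0.77 (Kif23, a motor of the central spindle) to 4.24 (Hmmr, a spindle-associated hyaluronan receptor). For each of the 30, every library of the first group lay above both of the second, as for 21.5% of all genes. Against day 0, all 30 were higher in the first group (median 4.03), beside 19.1% of all genes, and 8 in the second (median 0.88), where the share of all genes was near theirs at 28.6%. The list mean over day 0 was 3.69, 3.91 and 4.25 in 3d_1 to 3d_3, and 1.28 and 0.28 in 3d_4 and 3d_5. Without 3d_5, 12 of 29 tested members were still called, and in the 5 day 3 libraries alone 24 of 28 were.

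Mki67, the nuclear antigen Ki-67 of cycling cells, stood at 92.7, 145 and 188 CPM in 3d_1 to 3d_3 and at 13.2 and 5.95 in 3d_4 and 3d_5. The lowest library of the first group was above the highest of the second, and both second-group libraries were within or just above the day 0 range of 4.54 to 12.7. The log2 difference was 3.88 ± 0.54 (SE, adjusted p = 0.00217) with all libraries and 3.41 without 3d_5 (adjusted p = 0.0417) to 4.57 without 3d_4. Top2a, the topoisomerase that untangles replicated DNA, measured 54.3, 95.8 and 134 CPM against 9.48 and 2.94. Its log2 difference of 3.92 (adjusted p = 0.0063) was no longer called without 3d_5 (3.30, adjusted p = 0.0823), and it was 5.005 without 3d_4. Ccnb1, the mitotic cyclin B1, was 46.8, 38.7 and 45.3 CPM in the first group against 8.88 and 1.69. The log2 difference was 3.04 (adjusted p = 0.0123), and it was 2.28 without 3d_5 (adjusted p = 0.106) and 4.68 without 3d_4.

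In GENCODE vM21 (GRCm38) Mki67 spans chr7:135689784-135716361 and Ccnb1 spans chr13:100778650-100786570. Kif20a, a kinesin needed for cytokinesis, was 40.2, 39.0 and 53.6 CPM in the first group and 3.23 and 1.84 in the second. The groups were far apart and each was tight, and the log2 difference was 4.12 ± 0.43 (adjusted p = 0.000934), or 3.76 without 3d_5 (adjusted p = 0.0181). Hmmr was 25.1, 28.6 and 48.3 CPM against 2.82 and 0.735, a log2 difference of 4.24 (adjusted p = 0.00129) that was 3.57 without 3d_5 (adjusted p = 0.0181) and 5.52 without 3d_4.

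DNA replication genes differed less evenly. Of 29 members, 8 were higher in the first group and 0 lower (all genes: 10.3% higher, 8.22% lower), with a median log2 difference of 1.21, and 21 lay above the second group without overlap, beside 21.5% of all genes. Against day 0, 27 were higher in the first group and 9 in the second, beside 19.1% and 28.6% of all genes. The list means over day 0 were 0.99, 1.79 and 2.19 in 3d_1 to 3d_3 and 0.67 and 0.58 in 3d_4 and 3d_5, so 3d_1 lay closer to the second group than to 3d_3. None of the 8 calls remained without 3d_5, where 8 members had an unadjusted p under 0.05 by edgeR. Without 3d_2, 3d_3 or 3d_4 in turn 2 members were called each time, and without 3d_1 18 were. Rrm2, the small subunit of the enzyme that makes deoxynucleotides, was 84.8, 101 and 186 CPM against 28.6 and 29.3, a log2 difference of 2.09 (adjusted p = 0.00759) that was not called without 3d_5 (adjusted p = 0.0843). E2f1, a transcription factor of S-phase genes, was 6.82, 15.8 and 27.0 CPM against 3.03 and 3.23 (log2 difference 2.40, adjusted p = 0.0305), and was called only without 3d_1 when single libraries were left out. Mcm5, of the replicative helicase, and Pcna, the sliding clamp, were not called. Mcm5 was 22.1, 58.7 and 63.7 CPM against 19.8 and 16.2 (adjusted p = 0.109), with 3d_1 close to 3d_4, and was called without 3d_1 (adjusted p = 0.0341). Pcna was 74.8, 110 and 156 CPM against 75.0 and 81.5, and the groups overlapped (adjusted p = 0.16, and 0.0226 without 3d_1).

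Among 21 G1 cyclins and cyclin-dependent kinase inhibitors, 4 were higher in the first group and 0 lower (all genes: 10.3% higher, 8.22% lower). Without 3d_1, 6 were higher and 1 lower, and without 3d_2 or 3d_3 1 was higher. Ccne2 and Ccne1, the E cyclins of the step into S phase, differed by 2.76 (adjusted p = 0.0301) and 2.03 (adjusted p = 0.0305) on the log2 scale. Both kept their call without 3d_1 and lost it without any 1 of the other libraries, with Ccne2 lowest at 2.17 without 3d_3 (adjusted p = 0.0935). Ccnd1, which acts earlier in G1, was 176, 505 and 289 CPM against 145 and 214 (adjusted p = 0.119). Cdkn1a, the inhibitor p21, was 236, 37.1 and 116 CPM against 218 and 362 (adjusted p = 0.139). For both genes the groups overlapped with all libraries, and both were called without 3d_1 (log2 differences 1.15 and -1.92, adjusted p = 0.0177 and 0.0119).

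Promoters of the mitosis and DNA replication genes were read from a RefSeq table (build GRCm38.p6, 250 bases before to 50 after the start), which held 24 of the 30 mitosis genes and 25 of the 29 replication genes. The motifs were TTTGAA or TTCGAA (the cell cycle homology region), CCAAT, and TTTGGCGC, TTTCCCGC or TTCCCGCC (an E2F site), on either strand. The cell cycle homology region was in 20 of the 24 mitosis genes (83.3%), in 6 of the 25 replication genes (24%) and in 21.7% of all 27025 genes. CCAAT was in 79.2% of the mitosis genes, 64% of the replication genes and 41.1% of all genes. The E2F letters were in 0 of the 24 mitosis genes, 13 of the 25 replication genes (52%) and 3.69% of all genes. The shares describe letters and not binding. The promoters below are on the strand of the gene, with capitals for these motifs on either strand, and are shown because Mki67 and Hmmr carry the mitosis pattern, Ccnb1 lacks the homology region letters, and Mcm5 holds the E2F letters.

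Mki67 (chr7:135716330-135716629, minus strand): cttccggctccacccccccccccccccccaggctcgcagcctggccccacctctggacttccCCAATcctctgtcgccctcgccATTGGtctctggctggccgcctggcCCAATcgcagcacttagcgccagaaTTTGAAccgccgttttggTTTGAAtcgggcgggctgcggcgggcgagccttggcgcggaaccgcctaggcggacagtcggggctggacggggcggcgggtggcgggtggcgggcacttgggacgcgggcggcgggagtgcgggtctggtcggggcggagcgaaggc

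Hmmr (chr11:40733388-40733687, minus strand): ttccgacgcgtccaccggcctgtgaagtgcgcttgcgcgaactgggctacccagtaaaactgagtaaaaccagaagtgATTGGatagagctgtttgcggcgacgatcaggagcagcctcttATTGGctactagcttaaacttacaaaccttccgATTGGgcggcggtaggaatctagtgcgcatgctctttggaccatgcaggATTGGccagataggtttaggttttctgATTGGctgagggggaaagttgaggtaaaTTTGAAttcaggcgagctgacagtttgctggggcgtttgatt

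Ccnb1 (chr13:100786437-100786736, minus strand): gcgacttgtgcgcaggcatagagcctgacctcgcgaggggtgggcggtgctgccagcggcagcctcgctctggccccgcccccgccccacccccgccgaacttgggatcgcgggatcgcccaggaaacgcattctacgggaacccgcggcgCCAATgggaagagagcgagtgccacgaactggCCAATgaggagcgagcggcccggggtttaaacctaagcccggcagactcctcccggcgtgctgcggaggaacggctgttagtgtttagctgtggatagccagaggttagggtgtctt

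Mcm5 (chr8:75109259-75109558, plus strand): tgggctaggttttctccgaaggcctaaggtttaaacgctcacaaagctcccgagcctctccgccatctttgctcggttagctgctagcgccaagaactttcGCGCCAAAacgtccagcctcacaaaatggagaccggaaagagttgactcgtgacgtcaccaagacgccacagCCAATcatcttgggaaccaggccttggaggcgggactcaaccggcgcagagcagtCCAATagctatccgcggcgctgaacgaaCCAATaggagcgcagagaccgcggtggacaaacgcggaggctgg

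The Mki67, Hmmr and Ccnb1 promoters hold 3, 5 and 2 copies of CCAAT on either strand, and 2, 1 and 0 copies of the homology region. The Mcm5 promoter holds 3 of CCAAT and 1 of the E2F letters.

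**Figure D2:**
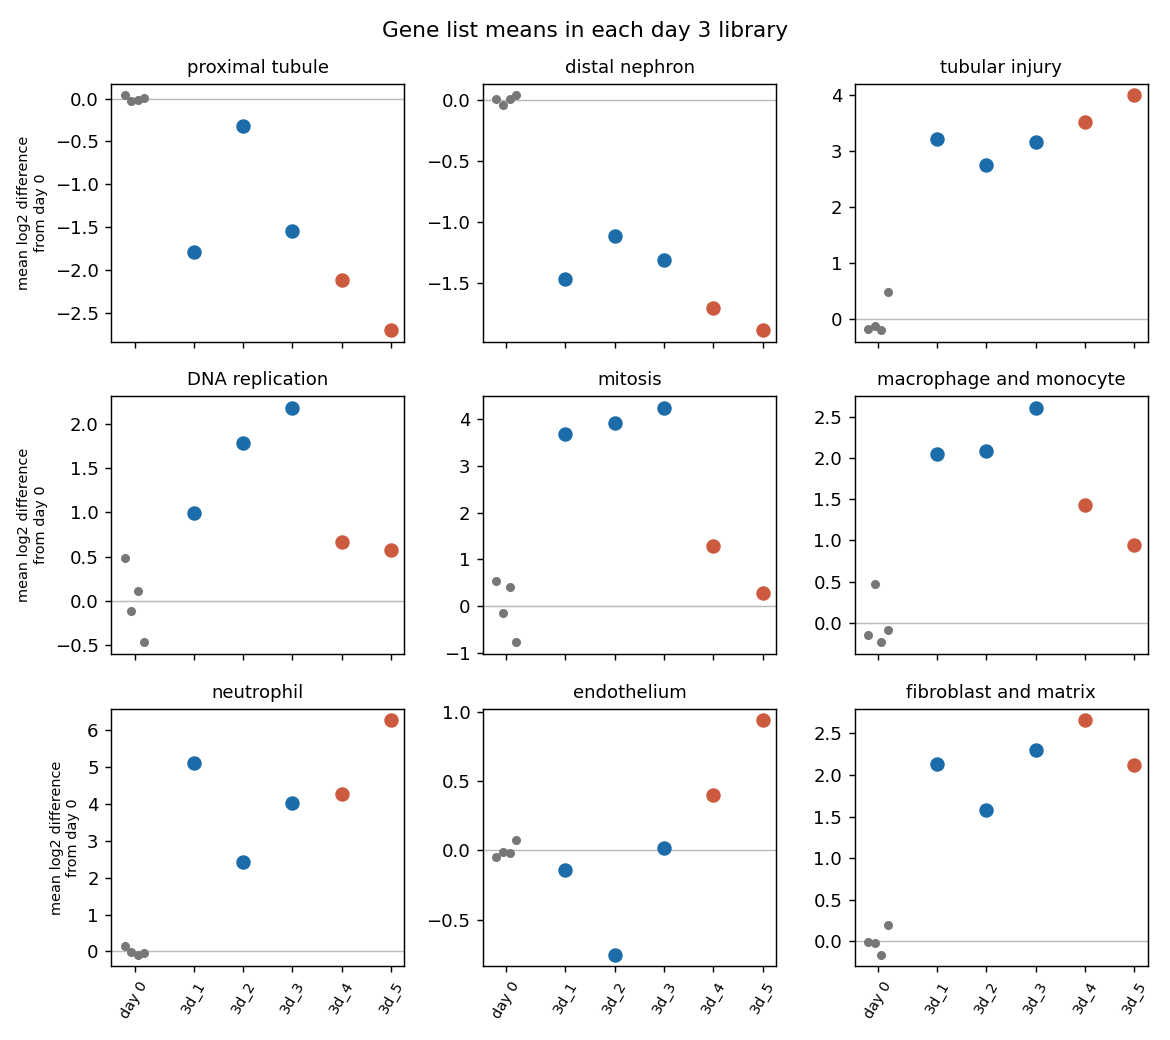
Mean log2 difference from the day 0 mean over the tested members of 9 gene lists, in the 4 day 0 libraries (grey), the first day 3 group (blue) and the second (red), each panel on its own scale. Mitosis stands at 3.69 to 4.25 in the first group against 0.28 and 1.28 in the second, and the proximal tubule list ranges from -0.33 in 3d_2 to -2.70 in 3d_5.

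Part of the proximal tubule genes were higher in the first group. Of 25 members 9 were higher and 0 lower in the first group (all genes: 10.3% higher, 8.22% lower), with a median log2 difference of 1.14. Against day 0, 10 were lower and 1 higher in the first group, and 19 lower and 1 higher in the second (median log2 differences -0.80 and -2.02). Of all genes, 13.3% and 25.1% were lower and 19.1% and 28.6% higher. The list mean over day 0 was -1.79, -0.33 and -1.55 in 3d_1 to 3d_3, and -2.12 and -2.70 in 3d_4 and 3d_5. Its summed levels overlapped, at 15908, 31358 and 15651 CPM against 16698 and 12697 CPM. None of the 9 calls remained without 3d_5, where 11 members had an unadjusted p under 0.05 by edgeR. Without 3d_2, the library nearest to day 0, 5 members were higher and 1 lower, and without 3d_1, 3d_3 and 3d_4 in turn 13, 8 and 11 were higher.

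Slc34a1, the main phosphate transporter of the proximal tubule (chr13:55398187-55415592), was 982, 4084 and 1335 CPM in 3d_1 to 3d_3 and 226 and 278 CPM in 3d_4 and 3d_5, against 4306 to 5387 at day 0. Only 3d_2 came near the day 0 range. The log2 difference was 3.08 ± 0.55 (adjusted p = 0.00551), and it was 3.21 without 3d_5 (adjusted p = 0.0661) and 2.20 without 3d_2. Lrp2, the megalin receptor for filtered protein (chr2:69424340-69586065), was 488, 2570 and 1397 CPM against 298 and 206. Its log2 difference of 2.56 (adjusted p = 0.0104) fell short of the threshold without 3d_5 (2.29, adjusted p = 0.119), and it was 1.90 without 3d_2. Gatm, of creatine synthesis, was 43.6, 1529 and 205 CPM against 38.5 and 36.3, so 3d_1 lay close to the second group, and its log2 difference fell from 3.99 to 1.73 without 3d_2 (adjusted p = 0.108). Its call was also lost without 3d_4 or 3d_5. Slc7a13, an amino acid transporter, was 28.1, 241 and 70.9 CPM against 11.7 and 4.04 (log2 difference 3.84). It was 2.65 without 3d_2, 4.81 without 3d_4 and, no longer called, 3.24 without 3d_5.

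Not all proximal tubule genes differed. Slc22a6, the organic anion transporter OAT1, was 1240, 929 and 1047 CPM against 1027 and 866, and the groups overlapped (adjusted p = 0.582). Slc5a2, the glucose transporter SGLT2, was 217, 673 and 165 CPM against 122 and 218 (log2 difference 1.05, adjusted p = 0.148, and 0.17 without 3d_2).

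Of 25 metabolic genes of the tubule 7 were higher and 2 lower in the first group (all genes: 10.3% higher, 8.22% lower), so the share that was lower was near that of all genes, and the median log2 difference was 0.28. Without 3d_1, 8 were higher and 5 lower, and without 3d_2 4 were higher and 0 lower. Acsm1, a medium-chain acyl-CoA ligase, was 334, 417 and 328 CPM against 117 and 67.8, a log2 difference of 1.96 ± 0.25 (adjusted p = 0.00143) that was 1.60 without 3d_5 (adjusted p = 0.0233). Ehhadh, of peroxisomal fatty acid oxidation, was lower in the first group at 2169, 821 and 824 CPM against 3738 and 3677 (log2 difference -1.54, adjusted p = 0.027, and -2.17 without 3d_1), and it lost its call without any 1 of the other libraries. Pck1, a rate-limiting enzyme of gluconeogenesis, was 8553, 3693 and 8916 CPM against 8602 and 2980, with 3d_2 and 3d_5 low and the others high (log2 difference 0.28, adjusted p = 0.671). It was 1.24 without 3d_4 and -0.30 without 3d_5, and was called in neither case.

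Of 22 distal nephron genes 7 were higher and 1 lower (all genes: 10.3% higher, 8.22% lower), with a median log2 difference of 0.52. Without 3d_1, 10 were higher and 5 lower, and without 3d_2 or 3d_3 5 were higher and 0 lower. Slc12a1, the salt transporter of the thick ascending limb, was 262, 430 and 614 CPM against 76.7 and 26.1, with day 0 at 1275 to 2100.2. The log2 difference was 3.08 ± 0.46 (adjusted p = 0.00299), 2.49 without 3d_5 (adjusted p = 0.0402) and 4.06 without 3d_4. Umod, uromodulin of the same segment, was 2408, 1986 and 2523 CPM against 1865 and 2809, and the groups overlapped (adjusted p = 0.966). Aqp2, the water channel of the collecting duct, was 296, 122 and 413 CPM against 192 and 87.0 (adjusted p = 0.138, and 0.0472 without 3d_2).

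Some tubular injury genes were lower in the first group, while most were above day 0 in both groups. Of 25 members 0 were higher and 8 lower (median log2 difference -0.41), beside 8.22% of all genes lower. Without 3d_5, 2 were called lower, without 3d_2 4 and without 3d_3 5, and without 3d_1 10 were lower and 2 higher. Against day 0, 23 were higher in the first group and 21 in the second, beside 19.1% and 28.6% of all genes. Krt20, a keratin of injured tubule cells, was 170, 52.6 and 85.0 CPM against 225 and 878, where day 0 was 0.0575 to 2.54. The difference of -2.43 (adjusted p = 0.0417) was -1.15 without 3d_5, the highest library (adjusted p = 0.424), and -3.10 without 3d_4, and the call was also lost without 3d_2 or 3d_3.

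Havcr1, Lcn2 and Spp1, classical injury markers, were not called with all libraries. Havcr1, which encodes KIM-1, was 170, 786 and 398 CPM against 516 and 248 (adjusted p = 0.807). Lcn2, which encodes NGAL, was 2063, 66.1 and 681 CPM against 2672 and 3403 (log2 difference -1.70, adjusted p = 0.168). Both second-group values of Lcn2 were above those of the first, with 3d_2 the lowest, and without 3d_1 it was called (-3.02, adjusted p = 0.0166). Spp1, osteopontin, was 28989, 4883 and 18588 CPM against 39738 and 30418 (adjusted p = 0.165), and was called without 3d_1 (log2 difference -1.58, adjusted p = 0.0268).

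**Figure D3:**
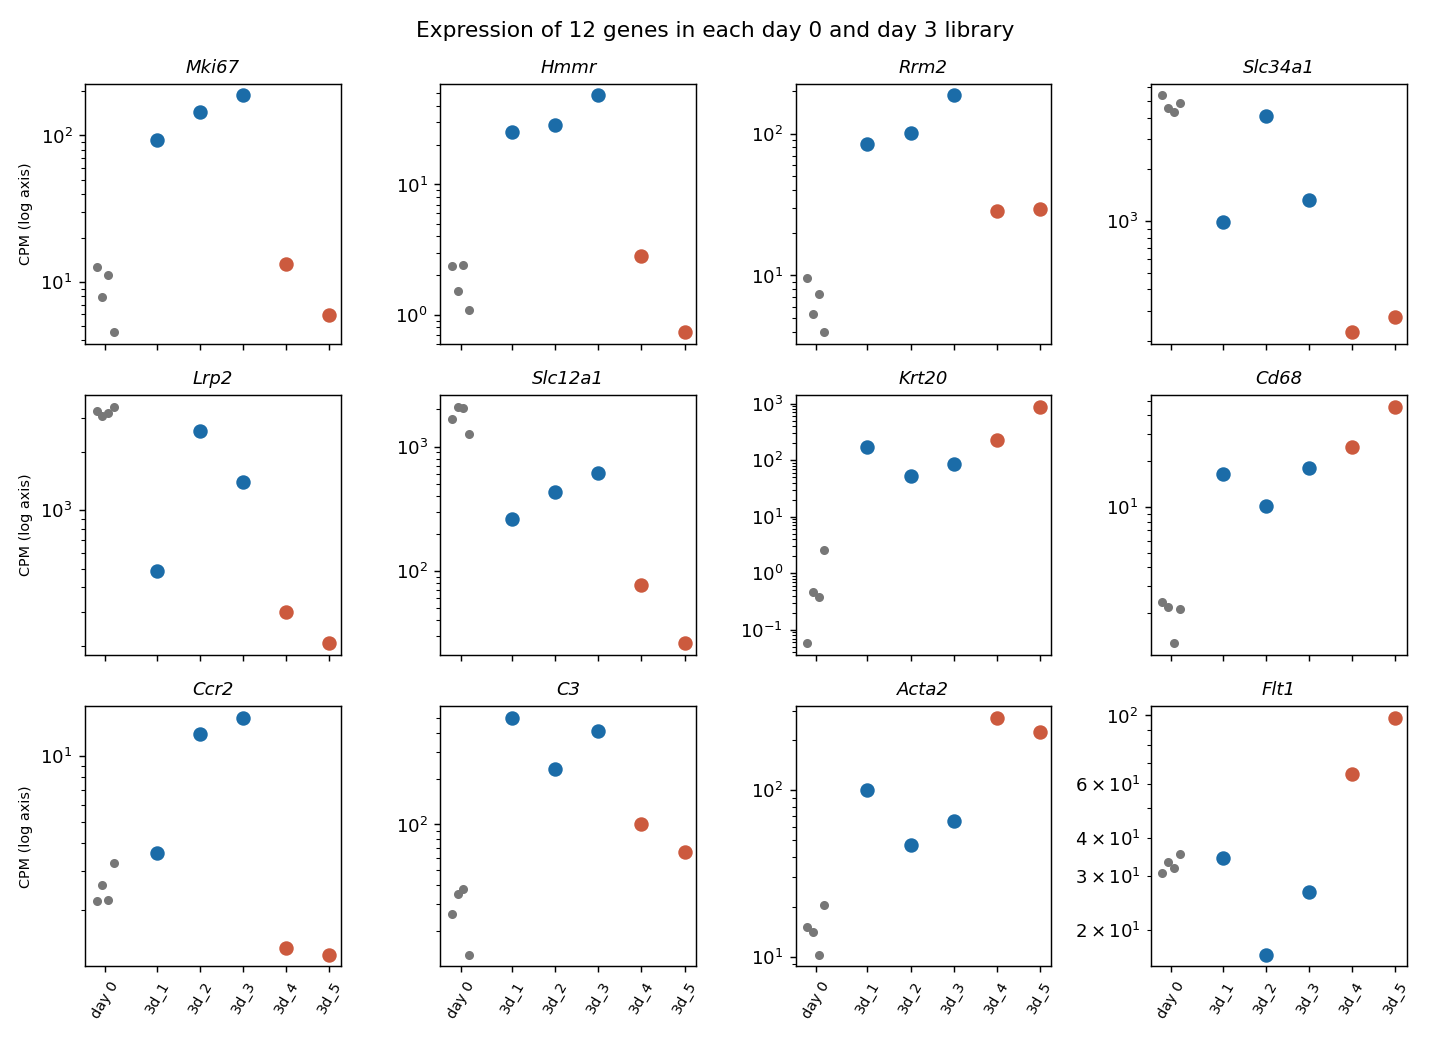
CPM of 12 genes in the 4 day 0 libraries (grey), the first day 3 group (blue) and the second (red), on log axes. Mki67, Hmmr, Slc34a1, Slc12a1 and Ccr2 lie higher in every first-group library than in either second-group library, and Krt20, Cd68, Acta2 and Flt1 lie lower.

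Called macrophage genes were higher in the first group with 1 exception. Of 28 members 10 were higher and 1 lower (all genes: 10.3% higher, 8.22% lower), with a median log2 difference of 1.07. Above day 0 were 21 members in the first group and 14 in the second, beside 19.1% and 28.6% of all genes. The list's summed level was 547 to 816 CPM in the first group and 404 and 406 CPM in the second. None was called without 3d_5, where 8 had an unadjusted p under 0.05 by edgeR, and without 3d_1 to 3d_4 in turn 15, 8, 7 and 12 were called. Ccr2, the chemokine receptor of recruited monocytes, was 3.61, 12.6 and 14.9 CPM against 1.34 and 1.25, with 3d_1 the lowest of its group (log2 difference 2.99, adjusted p = 0.00568, and 0.0758 without 3d_5). Adgre1, which encodes the macrophage marker F4/80, was 2.04, 9.86 and 5.74 CPM against 0.538 and 0.441 (log2 difference 3.56, adjusted p = 0.0302, and 2.97 without 3d_2), and it kept its call only without 3d_1 among the 5 libraries left out in turn.

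Cx3cr1, the fractalkine receptor, was 1.53, 11.9 and 7.33 CPM against 0.471 and 0 (log2 difference 4.79, adjusted p = 0.0175). With 0 reads in 3d_5 this value depended on the library left out, at 9.89 without 3d_4, 4.15 without 3d_2 and 3.83 without 3d_5. Cd68, a lysosomal protein of phagocytes, went the other way at 16.4, 10.1 and 18.1 CPM against 24.6 and 45.5 (log2 difference -1.23, adjusted p = 0.0205), and lost its call without 3d_2 or 3d_5. Complement genes were higher in the first group for 4 of 12 and lower for 0 (all genes: 10.3% higher, 8.22% lower), and without 3d_2 1 was higher and 0 lower, and without 3d_4 1 was higher and 1 lower. C3, the central complement component, was 499, 232 and 408 CPM against 99.996 and 66.4, a log2 difference of 2.19 (adjusted p = 0.0114) that was 1.91 without 3d_5 (adjusted p = 0.128).

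Neutrophil genes were 0 higher and 1 lower of 14 (all genes: 10.3% higher, 8.22% lower), so the share that was lower was near that of all genes. Without 3d_1 7 were lower, without 3d_4 5, and without 3d_5 0, with 0 at an unadjusted p under 0.05 by edgeR. That 1 was Ngp, a granule protein, at 0.560, 0.0563 and 0.0495 CPM against 0.807 in 3d_4 and 66.1 in 3d_5, so the call rested on 3d_5 alone. S100a8, an alarmin of neutrophils, was 36.2, 3.38 and 20.1 CPM against 17.0 and 139 (log2 difference -1.96, adjusted p = 0.113, and 0.21 without 3d_5), and it was called without 3d_1 or 3d_4 (adjusted p = 0.0423 and 0.0346). The neutrophil list's summed level was 567 CPM in 3d_5 against 31.0 to 192 in the other libraries. Only 7 of 24 lymphocyte genes were tested, with 0 higher and 1 lower (all genes: 10.3% higher, 8.22% lower). That 1 was Ccl5, a chemokine of T cells, at 0.662, 1.18 and 0.0495 CPM against 0.605 in 3d_4 and 6.83 in 3d_5, so it too rested on 3d_5. Its call by edgeR was also lost without 3d_1 or 3d_3 (adjusted p = 0.0589 and 0.117). Cd3e of T cells had at most 2 reads in any day 3 library.

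Antigen presentation genes were 3 higher and 1 lower of 13 (all genes: 10.3% higher, 8.22% lower), with a median log2 difference of 1.07 and a share lower that was near that of all genes. Without 3d_1, 5 were higher and 1 lower, and without 3d_2 1 was higher, as without 3d_4, where 1 was also lower. Against day 0, 2 members were higher and 3 lower in the first group, and 2 higher and 6 lower in the second (medians -0.13 and -1.13). Of all genes, 19.1% and 28.6% were higher and 13.3% and 25.1% lower. Ciita, the activator of class II genes, differed between the day 3 groups by 3.71 on the log2 scale (adjusted p = 0.0208), and by 3.05 without 3d_2 (adjusted p = 0.0569). Its call was also lost without 3d_4 or 3d_5. Cd74, the class II chaperone, was 13.3, 47.3 and 13.4 CPM against 7.67 and 15.9, overlapping (log2 difference 1.07, adjusted p = 0.125), and was 0.19 without 3d_2 and called without 3d_1 (adjusted p = 0.0362). Its mean at day 0 was 84.8 CPM. Chemokines and cytokines were 1 higher and 3 lower of 22 (all genes: 10.3% higher, 8.22% lower). Without 3d_1, 2 were higher and 7 lower, without 3d_4 6 were lower, and without 3d_2 1 was higher and 1 lower. Without 3d_3 or 3d_5 0 were called (6 and 4 at an unadjusted p under 0.05 by edgeR). Il6 was 0.967, 0.0563 and 0.248 CPM against 1.68 and 5.80, and Cxcl2, a neutrophil attractant, was 4.48, 1.30 and 2.13 CPM against 4.71 and 20.3, with 3d_5 highest for both. Without 3d_5 their log2 differences were -1.97 and -0.85 and without 3d_1 they were -4.51 and -2.84, and both also lost their call without 3d_3, Il6 without 3d_2 too. Ccl2, which attracts monocytes, was 6.31, 10.5 and 10.7 CPM against 4.77 and 6.10 (adjusted p = 0.263).

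Interferon-stimulated genes were 2 higher and 1 lower of 19 (all genes: 10.3% higher, 8.22% lower), so the share that was higher was near that of all genes. Without 3d_1, 5 were higher and 1 lower, and without 3d_2, 3d_3 or 3d_5 0 were higher and 2, 1 and 1 lower. Rsad2, which makes an antiviral nucleotide, was lower at 13.8, 13.6 and 10.8 CPM against 47.3 and 88.7 (log2 difference -2.41, adjusted p = 0.00163), and was still called without 3d_5 (-1.91, adjusted p = 0.0284). Isg15 was not (adjusted p = 0.773).

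Some markers of stromal and vascular cells were lower in the first group. Endothelial genes were 0 higher and 9 lower of 15 in the first group (all genes: 10.3% higher, 8.22% lower), with a median log2 difference of -0.89 and summed levels of 347 to 609 CPM against 848 and 1304. Without 3d_5, 0 endothelial members were called and 9 had an unadjusted p under 0.05 by edgeR. Flt1, a receptor for vascular endothelial growth factor, was 34.4, 16.6 and 26.7 CPM against 64.3 and 98.1, where day 0 was 30.6 to 35.4 (log2 difference -1.65, adjusted p = 0.00381, and 0.0648 without 3d_5). Fibroblast and matrix genes were 1 higher and 7 lower of 24 (all genes: 10.3% higher, 8.22% lower), with summed levels of 1777 to 2783 CPM against 4467 and 3936, and 5 were lower without 3d_2 and 2 without 3d_5. The fibroblast and matrix list means over day 0 overlapped, at 2.14, 1.58 and 2.30 in 3d_1 to 3d_3 against 2.66 and 2.12. The contractile markers Acta2 and Tagln were the clearest of the lower members. Acta2 was 100.2, 46.7 and 65.4 CPM against 273 and 224 (log2 difference -1.81 ± 0.31, adjusted p = 0.0052, and 0.0412 without 3d_5). Tagln was 139.9, 92.9 and 83.4 CPM against 535 and 359 (log2 difference -2.09, adjusted p = 0.00163, and 0.0123 without 3d_5).

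The collagen Col1a1 was 106, 62.8 and 157 CPM against 117 and 50.2 and was not called (adjusted p = 0.52), and Fn1 was not either (adjusted p = 0.613). Cnn2, the actin-binding protein the study is about, was 29.7, 39.4 and 45.4 CPM against 42.7 and 58.3, overlapping (log2 difference -0.40 ± 0.19, adjusted p = 0.144). Among genes of tissues that could have been taken with a kidney, 1 of 6 tested fat genes (Fabp4) and both of the 2 tested adrenal genes were lower in the first group, beside 8.22% of all genes. Without 3d_5 neither list had a call by edgeR, with Fabp4 at an adjusted p of 0.195 and with 2 genes of each list at an unadjusted p under 0.05. Without 3d_2, 3d_3 or 3d_4 both lists also had 0 calls by edgeR (1 or 2 members each at an unadjusted p under 0.05), and without 3d_1 4 fat genes and 1 adrenal gene were lower. The fat list's summed level was 157 to 479 CPM against 652 and 676, with the defining marker Adipoq at 1 read or fewer in every day 3 library. The tested adrenal genes had few reads, Mc2r 3 to 8 against 14 and 15, and Star 9 to 26 against 30 and 30. In any day 3 library the untested adrenal genes had at most 0 (Nr5a1, Cyp11b2), 1 (Cyp11b1), 4 (Cyp11a1), 12 (Cyp21a1) and 17 (Hsd3b1) reads. The part of these other cells in the differences of the tubular, proliferation and immune genes was not tested.

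**Figure D4:**
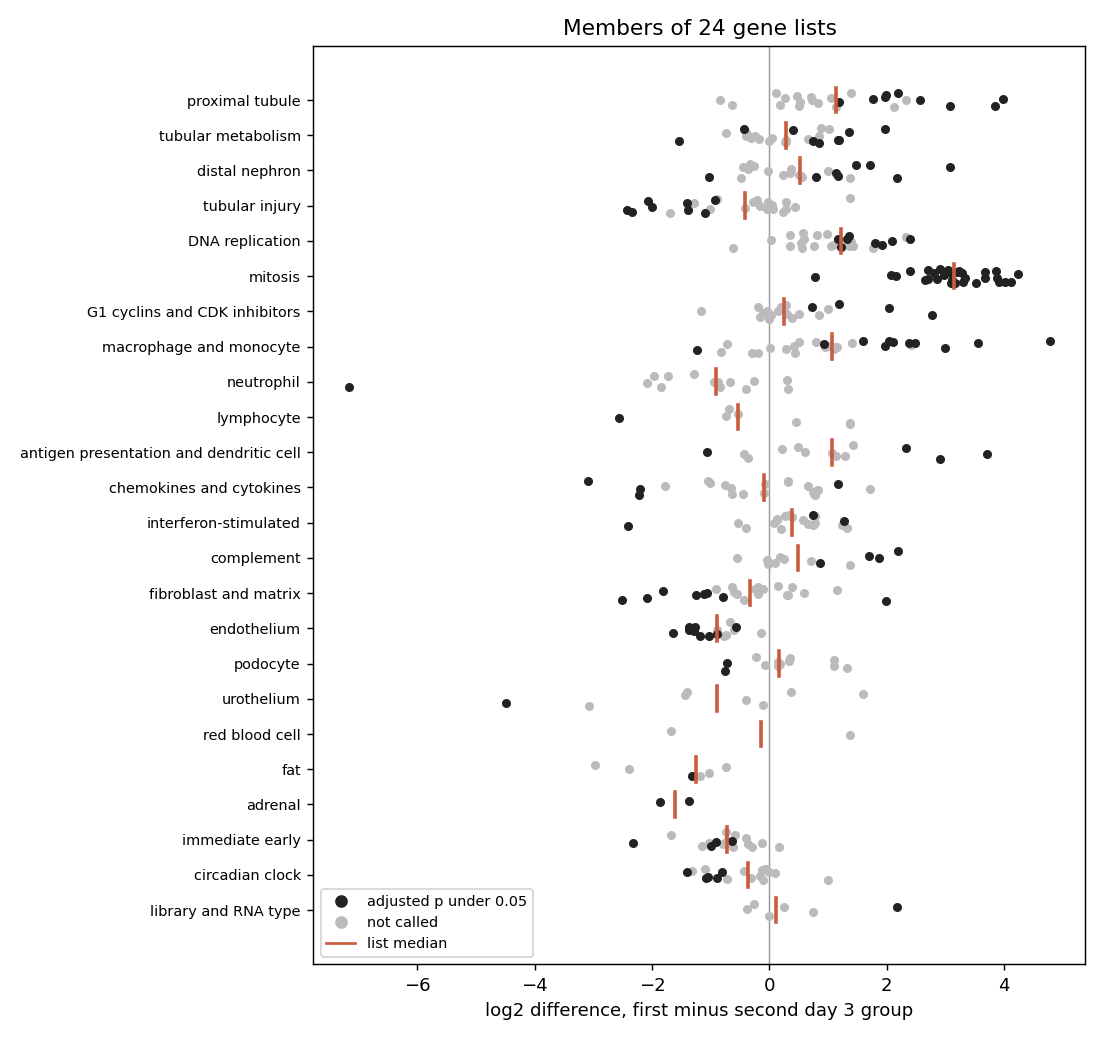
Log2 difference between the first and second day 3 groups for each tested member of 24 gene lists, with called members in black, others in grey and the list median as a red bar. All 30 mitosis members lie to the right of 0, while all 9 called endothelial members lie to the left.

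The largest differences were chosen among called genes with a mean of at least 1 CPM over the 5 libraries whose groups did not overlap. Higher in the first group were Dpys, Car3, Gm853, Atp12a and Neil3. Dpys, of pyrimidine breakdown, was 0.916, 4.45 and 1.14 CPM against 0 reads in both second-group libraries, at least 9.84-fold higher against a floor of 3 counts per library. That bound leaned on 3d_2, and Dpys was not called by edgeR without 3d_2 or 3d_3 (adjusted p = 0.12 and 0.0731). Neil3, a DNA glycosylase of dividing cells, was 4.43, 6.08 and 8.17 CPM against 0.269 and 0.147 (log2 difference 4.84, adjusted p = 0.00589). Car3, a carbonic anhydrase, was 19.1, 10.2 and 39.8 CPM against 0.202 and 0.735, with a log2 difference of 4.96 to 6.77 over the libraries left out in turn. Lower in the first group were Ngp, Fgb, Aloxe3, Vgf and 1700019B03Rik. The log2 difference of Vgf was -4.06, and it was -4.70 without 3d_5. Fgb, the fibrinogen beta chain, was 0.407, 0.113 and 0.248 CPM against 15.0 and 6.24, and it kept its call without 3d_5 (log2 difference -5.32, adjusted p = 0.00116, and 0.00471 without it), with a log2 difference of -4.56 without 3d_4.

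At day 1 the number formats also divided the libraries, 2 with 3 digits (1d_1 and 1d_2) and 3 with 1 digit (1d_3 to 1d_5). The day 3 difference differed from the day 1 difference for 2510 genes (17.6%), 1302 upward and 1208 downward, and with library totals in place of TMM the split was 979 and 1819. Among the lists, 14 of 25 proximal tubule and 19 of 30 mitosis members had a more positive difference at day 3. So did 7 of 22 distal nephron, 5 of 13 antigen presentation and 5 of 18 clock members. Tubular metabolism went both ways, with 8 more positive and 4 more negative of 25. More negative were 6 of 25 tubular injury, 10 of 24 fibroblast and matrix and 9 of 15 endothelial members. Median differences at day 1 were -0.84 for proximal tubule, 0.35 for mitosis, 0.20 for tubular injury, 0.47 for fibroblast and matrix and 0.16 for endothelium. For DNA replication 0 of 29 members passed this test, with a median difference of 1.13 at day 1 and 1.21 at day 3.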

How the data were processed

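Kidney RNA of 14 libraries (4 at day 0, 5 at day 1 and 5 at day 3 after renal IRI) was extracted with TRIzol and made into libraries with an Illumina TruSeq kit. The submitters' processing notes name Trimmomatic, STAR and build mm10, and tool versions and the gene annotation are not given in the sources used here. The authors deposited STAR gene counts, not normalized, in which only reads with a single mapping place are counted, for 24411 symbols and for both strands together and apart. Genes with near-identical copies are undercounted in this way. Column 4, which held 98.5% to 98.7% of the strand-assigned reads, was used. The 4 rows that name no gene held 29.0% to 38.3% of reads and were left out.

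The analysis used edgeR 4.0.16 with limma 3.58.1 in R 4.3.3, and DESeq2 1.42.0 as an alternative. Genes were kept by filterByExpr with the day as group (14300 genes) and scaled by TMM. The quasi-likelihood test was fitted over all 14 libraries with a term for each of 5 groups (day 0, and both library groups at day 1 and at day 3), because the day 3 libraries alone leave few degrees of freedom. The spread of each gene is thus shared over all days. Day 0 libraries lay 37.5 to 66.7 apart in log2 CPM, against 73.2 to 99.6 and 82.7 within the day 3 groups. How far this added to the calls was not tested. P-values were adjusted over all genes by Benjamini-Hochberg. An exact permutation of 3 against 2 libraries cannot give a p below 0.1. CPM values were scaled by TMM. Replicate libraries differed far beyond sampling noise, so none was counted as a repeat.

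The members and the 24 gene lists, drawn from general knowledge, were chosen with earlier results of these data known. Genes were named by role, as the 5 largest differences in each direction (called, mean of 1 CPM or more over the day 3 libraries, no overlap of groups), and as the 2 called members of each list with the largest absolute log2 difference. A few further members were named outside these rules after their values were seen (Kif23, Adipoq and the untested adrenal genes). Tested on simulated counts for the day 3 comparison of 14197 genes, 200 of them changed by 2 on the log2 scale, the fit recovered 171 with 13 false calls. In the simulation every group had the spread estimated by this fit, so outlying libraries such as 3d_2 and 3d_5 were not reproduced. It therefore cannot tell how many calls in the data are false. Alternatives tried were RLE size factors, library totals, the unstranded column, no low-count filter, a minimum of 10 counts per library, a filter by the 5 groups, an absolute log2 difference of at least 1, DESeq2, only the libraries compared, the replicate number as a block, counts thinned to the smallest library, prior counts 0.5 and 2 for log2 CPM, and leaving out each library in turn.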

Additional observations from a re-analysis of the deposited data

Results flagged for a closer look

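Among 103 sets of 4 day 0 values examined, 14 had a library far from the other 3, and chance does so in about 1 in 20 sets. For 2 of the 14, Ngp and Vgf, that library held 1 read and the others 0, so their distance follows from a single read. Day 0 replicate 4 was the high library for 9 of the other 12. Its values, with Vgf, were 2.54 CPM for Krt20 (0.0575 to 0.471 in the other libraries), 76.7 for Fn1 (25.6 to 27.2), 54.4 for Car3 (7.45 to 13.3), 0.0605 for Vgf (listed at 0 in the others), 14.3 for Tnc (3.10 to 4.37), 92.1 for Emcn (56.3 to 62.3), 132.7 for Fabp4 (57.6 to 70.2) and 0.726 for Fosb (0.115 to 0.177). For the tubular injury list its mean log2 difference from day 0 was 0.49, and for the immediate early list it was 0.63. Day 0 replicate 2 was high for Adgre1 at 12.4 CPM (1.87 to 2.15) and for Isg15 at 3.41 CPM (1.55 to 1.77). Replicate 3 held the single read of Ngp (0.0632 CPM), and replicate 1 was high for Ccne1 at 1.78 CPM (0.765 to 0.884).

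Of 79 named genes, 34 had a group difference at day 3 that differed from the one at day 1 (interaction contrast in edgeR, adjusted p under 0.05), beside 17.6% of all genes. Most of the 79 were named for a called day 3 difference, so an excess over all genes follows from how they were chosen. The log2 difference was more positive at day 3 than at day 1 by the following amounts: Slc34a1 6.11, Slc5a2 2.89, Lrp2 3.40, Mki67 3.55, Ccr2 2.41, Cd74 2.31, Car3 6.50, Gm853 7.99, Gatm 7.58, Slc7a13 7.40, Acsm1 3.43, Slc12a1 3.67, Egf 4.79, Hmmr 3.46, Kif20a 3.87, Cxcl2 3.28, C4b 2.61 and Nr1d1 2.32. It was more negative at day 3 for the others, by Ehhadh -2.62, Havcr1 -4.77, Spp1 -2.49, Cd68 -2.03, Col1a1 -2.25, Acta2 -3.62, Cnn2 -1.74, Fgb -8.41, Aloxe3 -4.25, Vgf -4.92, Plin2 -3.49, Tnc -3.38, Tagln -3.27, Flt1 -1.56, Synpo -1.57 and Krt14 -12.88. Values for genes listed at 0 in a library, such as Krt14, depend on the prior count and give no bound on a fold.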

How the results depend on the processing

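The number of genes that differed between the day 3 groups was 2390 to 3524 under the unstranded column, RLE size factors, library totals, no low-count filter, a minimum of 10 counts per library, a filter by the 5 groups, thinned counts and DESeq2, against 2645. It was 1467 with an absolute log2 difference of at least 1 and 76 in the 5 day 3 libraries alone, of which all 76 were among the 2645. Leaving out a library gave 91 (without 3d_5) to 4771 (without 3d_1). With the same minimum, 2220 and 4293 genes differed from day 0 in the first and second groups. With only the libraries compared, 1243 genes had a day 3 difference that differed from day 1, and without a library 1260 to 3148 did.

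In the 5 day 3 libraries alone, edgeR called 0 proximal tubule, 0 DNA replication, 0 macrophage, 0 endothelial and 1 tubular injury genes, with 9, 21, 10, 11 and 9 members at an unadjusted p under 0.05. DESeq2 over all libraries called 13, 12, 13, 11 and 7. Requiring 10 counts in every library left 6 macrophage genes called. Leaving out 1 library gave 0 to 13 proximal tubule (without 3d_2, 5 higher and 1 lower), 2 to 12 tubular injury (without 3d_1, 2 higher and 10 lower), 0 to 18 DNA replication, 12 to 29 mitosis, 0 to 15 macrophage and 0 to 11 endothelial genes called. The cause of these changes was not tested.

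The replicate number of the title was also fitted as a block. The day 3 groups share no number, so their difference is then judged through the other days. With the block, edgeR called 0 genes between the day 3 groups (2137 at an unadjusted p under 0.05, and DESeq2 with the block called 301), 4093 in the second group against day 0 and 1608 for the difference from day 1. The proximal tubule, tubular injury, DNA replication, mitosis, macrophage and endothelium lists had 0 calls (7, 8, 4, 28, 11 and 4 members at an unadjusted p under 0.05). Same-numbered day 0 and day 3 libraries deviated together with correlations of -0.09 to 0.06. Day 1 was not part of these correlations, and in a group of 2 libraries 1 deviation mirrors the other. The correlations therefore cannot decide whether the number marks a shared origin.

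Over the named genes, 964 results with another setting kept their direction and side of the threshold, 216 were weaker, 12 stronger and 17 reversed, and a prior count of 0.5 moved 2 of 79 differences in mean log2 CPM beyond the replicate spread. Direction turned for genes that these settings did not call. The log2 difference of Umod was 0.016 with library totals and 0.18 with the block, where Slc22a6 was -0.27, Pck1 -0.25 and Sox9 0.99. Leaving out a library, it ranged from -0.29 to 0.29 for Umod, -0.30 to 1.24 for Pck1, -0.43 to 0.86 for Havcr1, -1.13 to 1.01 for Sox9, -2.80 to 0.21 for S100a8, -0.37 to 0.80 for Isg15, -0.12 to 1.12 for Col1a1, -3.45 to 0.012 for Ccl5 and -6.26 to 5.35 for Krt14. Of these, Ccl5 and Krt14 are called with all libraries.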

Other observations

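Some clock and immediate early genes were lower in the first group, beside 8.22% of all genes. Of 18 clock genes 5 were lower and 0 higher, among them Nr1d1, a repressor of the clock, at 28.5, 16.2 and 10.8 CPM in 3d_1 to 3d_3 against 38.5 and 59.6 CPM in 3d_4 and 3d_5 (log2 difference -1.41, adjusted p = 0.0334). Cry1, another clock repressor, was 14.2, 10.1 and 13.7 CPM against 25.4 and 28.0, so that the second group lay within or just beside the day 0 range of 25.6 to 27.6 (log2 difference -1.07, adjusted p = 0.00867). Of 18 immediate early genes 4 were lower and 0 higher, and Fosb, a subunit of the AP-1 factor, was 0.916, 0.225 and 0.594 CPM against 1.14 and 4.85 (log2 difference -2.32, adjusted p = 0.0417). Its difference was -0.97 without 3d_5 and -3.03 without 3d_4, and it was also not called without 3d_2 or 3d_3 (adjusted p = 0.115 and 0.102). Without 3d_5 both lists had 0 calls and 1 member each at an unadjusted p under 0.05 by edgeR, which gave adjusted p values of 0.229 for Nr1d1, 0.0837 for Cry1 and 0.544 for Fosb. Without 3d_1, 7 clock genes were lower and 1 higher and 9 immediate early genes were lower, and without 3d_2 or 3d_3 1 clock gene was lower, with 0 and 1 immediate early genes. Nr1d1 was not called in either case.

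Podocyte genes were 2 lower and 0 higher of 12 (all genes: 8.22% lower, 10.3% higher). The list median was 0.17, with 8 of the 12 log2 differences positive, and 2 lay higher in the first group without overlap, a smaller share than the 21.5% of all genes. Without 3d_1, 2 were higher and 2 lower. Both calls were lost without 3d_5. Podxl, the surface sialomucin of podocytes, was 203, 176 and 214 CPM against 332 and 335 (log2 difference -0.75, adjusted p = 0.00776). Urothelial genes were 1 lower of 8, a share near the 8.22% of all genes. That 1 was Krt14, at 13.2 CPM in 3d_4 and at most 0.693 in the other day 3 libraries, so that leaving out 3d_4 turned its log2 difference from -4.48 to 5.35 (adjusted p = 0.344). Krt14 was also not called without 3d_1, 3d_2 or 3d_3, and its log2 difference was -5.49 without 3d_5. Of 2 tested red blood cell genes 0 were called by edgeR (1 at an unadjusted p under 0.05), and without 3d_1 1 was higher and 1 lower. Of 6 tested library and RNA type genes 1 was higher, beside 10.3% of all genes. It was the nuclear RNA Neat1, at 76.7, 648 and 462 CPM against 98.2 and 77.2, so that 3d_1 lay with the second group (log2 difference 2.17, adjusted p = 0.031), and it was called only without 3d_1 when single libraries were left out.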
